A study of Mus musculus with 13 samples.

Results

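The structural myelin genes of the peripheral nerve were followed in sciatic nerves that had lost Raptor in Schwann cells (SCs) and in controls, with and without a crush injury. The set holds 8 genes, chosen by name as genes of compact and non-compact myelin proteins (Mbp, Pmp22, Mag, Prx, Mal, Cnp, Pllp, and Drp2). All 8 were found among the 40787 genes of the count table, and all 8 passed the filter on low counts in every comparison, also in the nerves where they were lowest. Raptor, encoded by Rptor, is a subunit of the mTORC1 kinase complex.

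RNA sequencing covered 13 nerves, 1 library each, in 4 groups. Controls were Rptor flox/flox mice without Cre, and RaptorKOs were Rptor flox/flox mice with a tamoxifen-inducible Cre directed to SCs, so both genotypes carried floxed Rptor alleles, and tamoxifen was given to both at an age of 2 months. The crush followed 2 months later on 1 side, and nerves were taken at 5 days post crush (dpc) from the part distal to the injury (3 control and 3 RaptorKO libraries) and from the contralateral side (3 control and 4 RaptorKO libraries). Other cells of the nerve keep Rptor. RNA came from the whole nerve without epineurium, so that fewer SCs and less RNA per SC cannot be told apart in any value below. The labels number the libraries but do not tie numbers to mice, and p-values measure the spread between these libraries. Equal numbers within a genotype may mark both nerves of 1 mouse, and the main tests use no pairing.

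Myelin is the spiral of SC membrane around an axon. In compact myelin, MBP holds the cytoplasmic faces of neighbouring turns together, and PMP22 is a membrane protein of the same layers. Non-compact myelin keeps cytoplasm and holds MAG, the adhesion molecule that faces the axon, CNP, an enzyme bound to the membrane skeleton, and, at the outer surface, periaxin (PRX) with DRP2, which tie the SC to the dystroglycan complex. MAL and plasmolipin (PLLP) are small proteolipids that sort membrane to myelin. When an axon is cut off, SCs shut these genes down, break up their myelin, and turn into repair cells.

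In GRCm38, Mbp (ENSMUSG00000041607) lies on chromosome 18 from 82475146 to 82585637 on the plus strand. Pmp22 (ENSMUSG00000018217) and Cnp (ENSMUSG00000006782) are both on chromosome 11, from 63128982 to 63159547 and from 100574904 to 100591729, on the plus strand. Prx (ENSMUSG00000053198, plus strand, 27499324 to 27520214) and Mag (ENSMUSG00000036634, minus strand, 30899176 to 30914873) share chromosome 7. Mal (ENSMUSG00000027375) lies on chromosome 2 from 127633226 to 127656695, and Pllp (ENSMUSG00000031775) on chromosome 8 from 94674894 to 94696278, both on the minus strand. Drp2 (ENSMUSG00000000223) is X-linked, from 134404551 to 134456573 on the plus strand. An exon of Cnp overlaps one of Dnajc7 on the other strand. Exons of Prx and Pllp overlap the antisense genes Gm15541 (1 to 9 counts per library) and Gm45767 (2 to 97 counts per library). Whether counting used strand is not stated, so reads of overlapping genes cannot be told apart.

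Library totals ranged from 8200458 to 13581775 counts. Rptor was 43.73 to 52.52 CPM in contralateral controls and 22.06 to 28.02 CPM in contralateral RaptorKOs (log2 fold change -0.998, SE 0.12, adjusted p = 5.00e-04), and 35.05 to 48.61 against 23.18 to 28.63 CPM in injured nerves (-0.69, SE 0.15, adjusted p = 0.0167, edgeR's quasi-likelihood test). CPM are counts per 1000000 counts after TMM scaling over all 13 libraries. Both control libraries numbered 3 stand apart by sex-linked genes, with 14462 and 15017 counts of Xist against 4 to 17 in the other libraries. Drp2, the X-linked member, was 5068 CPM in the contralateral library concerned and 5247 and 5251 CPM in the other contralateral controls. In injured controls it was 48.26 CPM in the library concerned and 58.83 and 65.67 CPM in the others. No RaptorKO library had high Xist, so sex and genotype go partly together. The part of sex in the differences between genotypes was not tested. The presence of SCs in the nerves was checked with 6 markers, among them Sox10, S100b, Erbb3, Cdh19, and Gpr37l1, which had counts in all 4 groups. Gpr37l1 was low in injured RaptorKOs, at 2.908 to 5.331 CPM against 112.9 to 133.2 CPM in contralateral controls. Several members are also genes of oligodendrocytes, the myelinating glia of the central nervous system. The 5 oligodendrocyte markers (Mog, Opalin, Mobp, Olig2, and Hapln2) held 43 to 77 counts together in contralateral and 2 to 10 in injured libraries, and Mog was at 0 in all but 1 library.

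The first question was how far these genes fell at 5 dpc in controls. All 8 fell, by 3.575-fold (Cnp) to 91.72-fold (Drp2), and no injured library reached the level of any contralateral one. The 8 genes together made up 5.38% to 5.77% of all counts in contralateral controls and 0.172% to 0.216% in injured controls. Their median log2 fold change was -4.61, against -0.002 over the 12430 genes tested. Of all tested genes, 32.9% were called lower and 32.4% higher, and in 70.9% the 2 groups did not overlap. Calls needed more than a 1.2-fold change together with an adjusted p under 0.05 (Benjamini-Hochberg, over all genes tested).

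The compact myelin genes Mbp and Pmp22 and the periaxin complex genes Prx and Drp2 fell furthest. Pmp22 was 19810, 21380, and 18760 CPM in contralateral controls and 390.2, 491.2, and 399.5 CPM in injured controls (log2 fold change -5.57, SE 0.11, adjusted p = 4.33e-11, edgeR's quasi-likelihood test). Mbp was 23840, 24010, and 21830 CPM on the contralateral side and 717.8, 694.3, and 517.8 CPM after injury (-5.20, SE 0.12, adjusted p = 5.01e-11 in the same test). For both, the contralateral libraries lay close together, and 2.14% of Pmp22 and 2.77% of Mbp was left after injury. Prx, whose product lines the outer membrane of the myelin sheath, went from 6825, 6694, and 6474 CPM to 99.84, 172.9, and 115 CPM (-5.71, SE 0.20, adjusted p = 2.97e-10, quasi-likelihood test). Drp2, the partner of periaxin, went from 5247, 5251, and 5068 CPM to 58.83, 65.67, and 48.26 CPM (-6.52, SE 0.13, adjusted p = 4.33e-11, quasi-likelihood test). Only 1.11% of Drp2 was left, and its 95% interval, -6.82 to -6.22, did not overlap that of Prx (-6.14 to -5.28).

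The sorting proteolipids and Mag fell less far. Mal was 3319, 3543, and 3307 CPM in contralateral controls and 173.9, 229, and 234.1 CPM in injured controls (-4.02, SE 0.13, adjusted p = 2.38e-10, quasi-likelihood test). Pllp was 563.8, 538.4, and 485.3 CPM and then 38.64, 37.7, and 32.99 CPM (-3.89, SE 0.12, adjusted p = 1.39e-10, quasi-likelihood test). The injured libraries lay close together for Pllp, and for Mal injured control 1 was the lowest. Mag, the adhesion molecule on the axon side, was 335.4, 316.1, and 343 CPM and then 14.43, 32.65, and 26.63 CPM (-3.78, SE 0.23, adjusted p = 2.90e-08, quasi-likelihood test). Its injured controls were the most scattered values of the set, with an SD of 37.8% of the mean.

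Cnp kept the most RNA. It was 1071, 998.5, and 1002 CPM in contralateral controls and 278.8, 320.5, and 275 CPM in injured controls, with 28.5% left (-1.84, SE 0.11, adjusted p = 2.07e-08, edgeR's quasi-likelihood test). Its 95% interval, -2.07 to -1.61, lay apart from those of the other 7 genes, of which Mag had the nearest (-4.27 to -3.29). Dnajc7, on the other strand, was 239 to 260 CPM in contralateral and 129 to 176 CPM in injured controls, and its part in the Cnp counts was not tested.

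**Figure D1:**
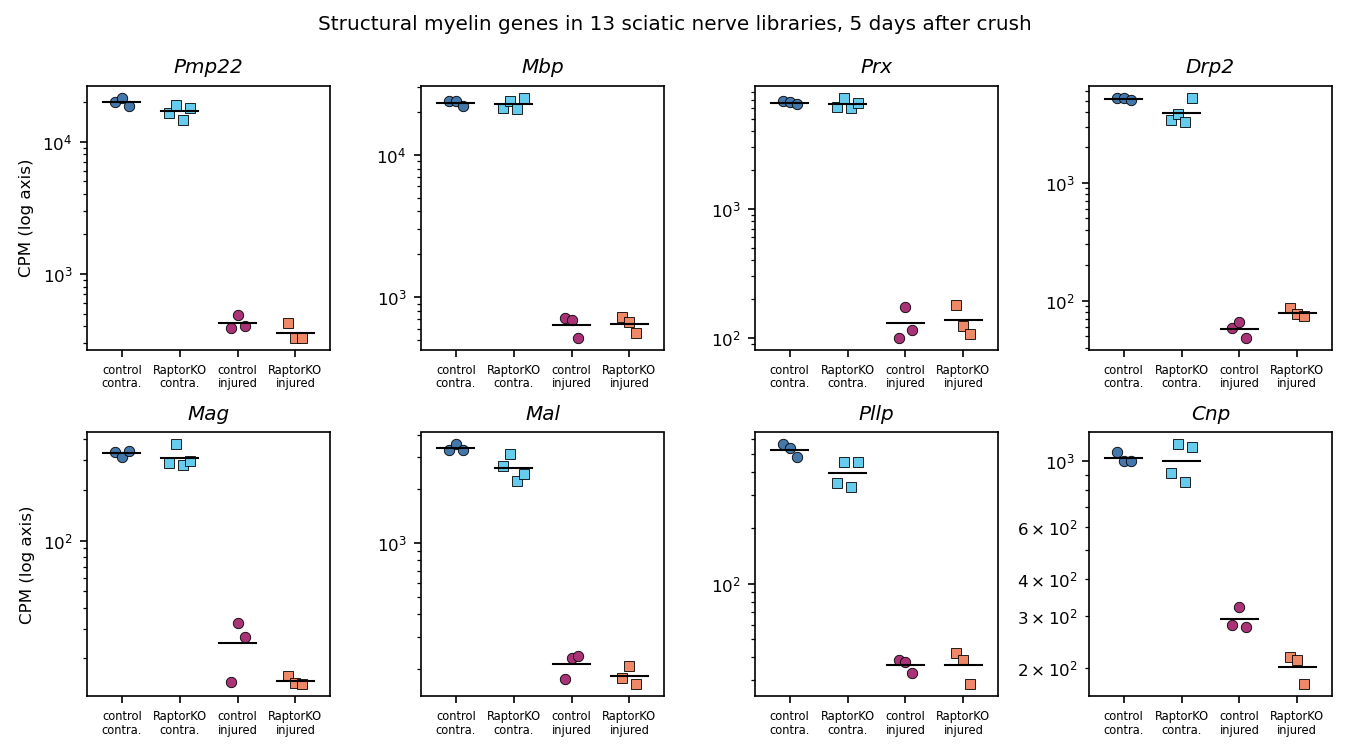
CPM (counts per 1000000 counts, log axis, each panel with its own range) of the 8 structural myelin genes in each library of the 4 groups (3, 4, 3, and 3 libraries), with bars at group means. The injured libraries lie below all contralateral libraries in each panel, with the smallest gap for Cnp (998.5 to 1071 against 275 to 320.5 CPM in controls).

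The make-up of the remaining myelin transcripts was different after injury. Levels per kilobase divide CPM by all exon bases of a gene, joined over its annotated transcripts (8469 for Mbp and 2354 for Pmp22). Which transcripts the nerves held was not tested, so the order between genes and the shares depend on these lengths. By CPM alone, Mbp was above Pmp22 in contralateral controls (means of 23230 and 19980 CPM). Per kilobase of exon, Pmp22 was the highest in contralateral controls (8489 ± 560 CPM per kb, SD, n = 3), followed by Mbp (2743 ± 143.2), by Mal and Prx (1220 ± 47.9 and 1195 ± 31.74, which overlapped), and by Drp2 (606.6 ± 12.24). Cnp (281.3 ± 11.25), Pllp (254 ± 19.24), and Mag (81.41 ± 3.413) were the lowest, in this order in every library. In injured controls Pmp22 was still the highest (181.4 ± 23.72 CPM per kb). Cnp (80.08 ± 6.933), Mal (76.43 ± 12.01), and Mbp (75.96 ± 12.91) came next and could not be ordered. Prx (23.17 ± 6.909) overlapped Pllp (17.49 ± 1.453), and Drp2 (6.733 ± 1.025) overlapped Mag (6.034 ± 2.279). As a share of the summed level per kilobase, Cnp went from 1.9% ± 0.12 to 17.2% ± 0.403 and Mal from 8.21% ± 0.222 to 16.4% ± 2.5, without overlap between the groups, whereas Pmp22 went from 57.1% ± 0.95 to 38.8% ± 0.862. These shares are a description and were not tested.

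**Figure D2:**
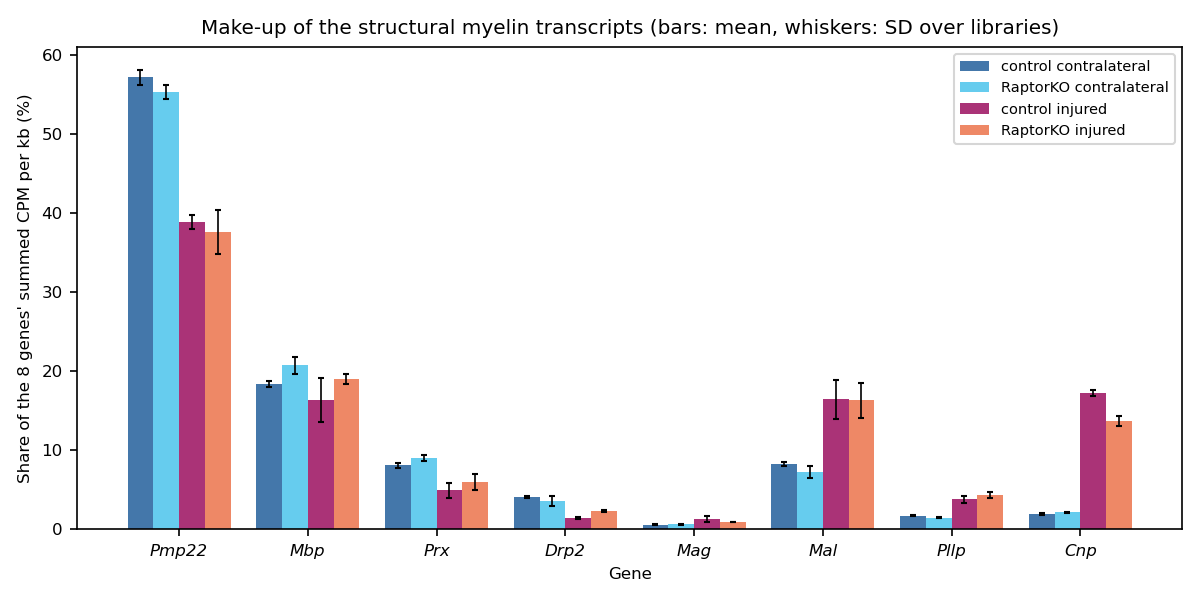
Mean share (%) of each gene in the summed CPM per kilobase of the 8 genes, by group, with whiskers for the SD over 3 or 4 libraries. Lengths are all exon bases of a gene, joined over its annotated transcripts. After injury the bars of Cnp, Mal, and Pllp are higher and those of Pmp22, Prx, and Drp2 lower than on the contralateral side, and Cnp reaches 17.2% in injured controls and 13.7% in injured RaptorKOs.

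RaptorKOs, whose nerves were compared in the same way, also lost the 8 transcripts after crush. All 8 were called lower, by 4.972-fold (Cnp) to 50.26-fold (Drp2), with a median log2 fold change of -4.77 against 0.028 over the 12515 genes tested, and no groups overlapped. Among all tested genes 28.5% were called lower and 30.5% higher, and 60.6% had groups without overlap. Mbp was 21390, 23830, 21060, and 25010 CPM in contralateral and 726.8, 672, and 557.4 CPM in injured RaptorKOs (-5.13, SE 0.14). Pmp22 was 16460, 18960, 14530, and 17920 CPM and then 422.4, 327.4, and 327.1 CPM (-5.57, SE 0.16). What was left of both, 2.86% and 2.12%, was close to the shares left in controls. Prx went from 6210, 7237, 6030, and 6675 CPM to 179.6, 123.4, and 106.2 CPM (-5.59, SE 0.21, 2.09% left). Mal went from 2695, 3144, 2207, and 2437 CPM to 176.3, 206.3, and 163 CPM (-3.85, SE 0.16, 6.94% left). RaptorKO injured 1 held the most Prx and RaptorKO injured 2 the most Mal. The adjusted p of the 8 falls ranged from 3.29e-09 for Mbp to 2.77e-07 for Cnp (edgeR's quasi-likelihood test).

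Drp2, Pllp, Mag, and Cnp left a different percentage in RaptorKOs than in controls by more than 1.2-fold. Drp2 kept 2% (3444, 3836, 3304, and 5218 CPM to 85.83, 77.18, and 73.53 CPM, -5.65, SE 0.20) against 1.11% in controls. Pllp kept 9.13% (348, 455.3, 331.8, and 456.3 CPM to 41.94, 38.51, and 28.53 CPM, -3.46, SE 0.18) against 6.89%. For both genes RaptorKO injured 1 was the highest of the injured RaptorKOs, and RaptorKO contralateral 4 was the highest on the other side. Mag kept 4.73% (289.7, 373.3, 281, and 298.7 CPM to 15.81, 14.3, and 13.99 CPM, -4.41, SE 0.14) against 7.41%. Cnp kept 20.2% (907.3, 1137, 846.1, and 1111 CPM to 218.1, 211.9, and 175.5 CPM, -2.31, SE 0.14) against 28.5%. Only that of Drp2 passed the test of the difference itself, given below. Across the injured RaptorKOs the order per kilobase was again led by Pmp22 (152.5 ± 23.33), followed by Mbp (76.99), Mal (65.46), and Cnp (55.46). Mal overlapped both Mbp and Cnp, Mbp was above Cnp in every library, and Drp2 (9.218 ± 0.7384) was above Mag (3.611 ± 0.2394) in every library.

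**Figure D3:**
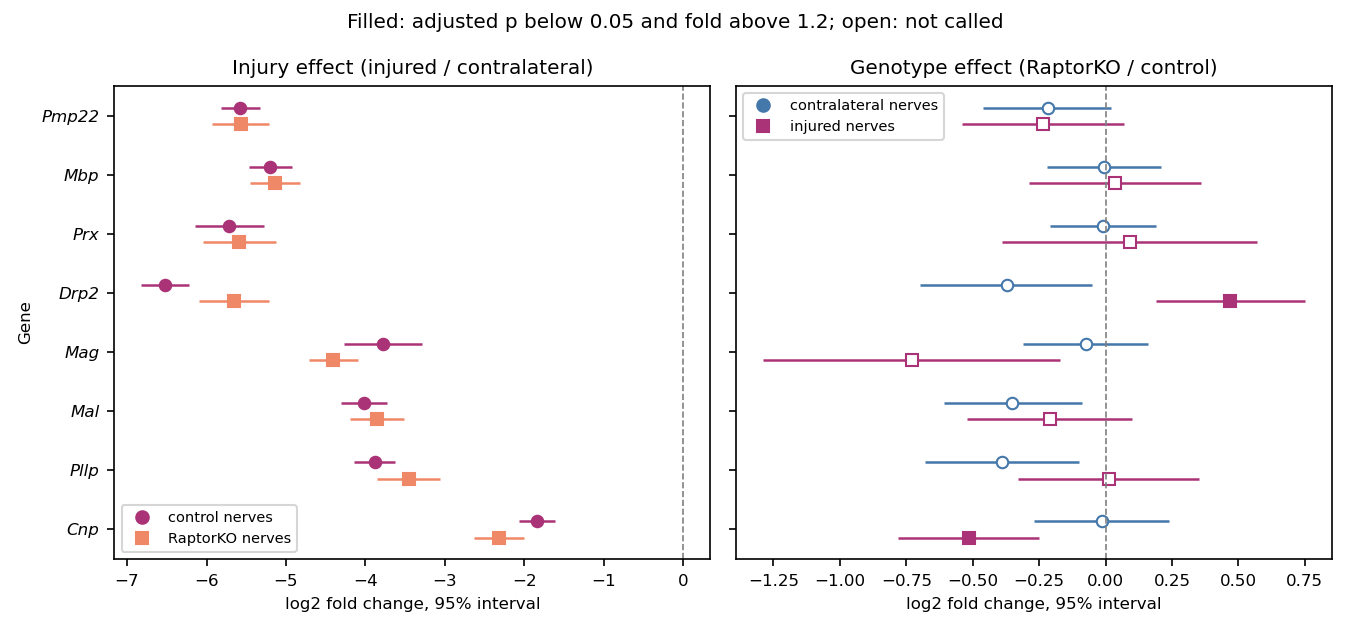
Log2 fold changes with 95% intervals (x axis) of the 8 genes (y axis), for injury within each genotype (left) and for RaptorKO over control within each kind of nerve (right), with filled symbols for called genes. All injury effects are filled and far below 0, whereas among the genotype effects only Cnp (-0.51) and Drp2 (0.47) in injured nerves are filled.

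The 200 bases before the transcription start are shown for 4 of the members that fell together, those whose printed stretch lies outside the bounds of the gene in GENCODE M21. Sequences are from RefSeq on GRCm38.p6, which gave start sites for 6 of the 8 genes and 11 windows in all. Capitals mark matches to the motifs of EGR factors (GTGGGNG), SOX factors (ACAAAG or ACAATG), or AP-1 (TGANTCA), searched on both strands, so that a match on the other strand reads as the reverse complement. EGR2 and SOX10 are activators of myelin genes, and JUN, an AP-1 factor, acts in repair cells.
Prx, chr7:27499124-27499323, plus strand: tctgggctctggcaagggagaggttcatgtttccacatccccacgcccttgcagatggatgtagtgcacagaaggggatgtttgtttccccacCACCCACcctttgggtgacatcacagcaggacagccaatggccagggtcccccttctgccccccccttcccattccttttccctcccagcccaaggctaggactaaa
Mag, first of 3 start sites, chr7:30914923-30915122, minus strand: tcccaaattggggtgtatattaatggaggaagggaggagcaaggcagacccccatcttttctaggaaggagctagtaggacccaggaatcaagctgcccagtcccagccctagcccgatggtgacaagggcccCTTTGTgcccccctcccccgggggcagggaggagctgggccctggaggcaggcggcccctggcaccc
Pmp22, first of 4 start sites, chr11:63128782-63128981, plus strand: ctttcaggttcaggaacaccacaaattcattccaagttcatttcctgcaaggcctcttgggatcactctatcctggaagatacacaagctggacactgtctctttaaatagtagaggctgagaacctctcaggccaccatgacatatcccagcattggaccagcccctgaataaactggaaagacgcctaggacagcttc
Mal, chr2:127656696-127656895, minus strand: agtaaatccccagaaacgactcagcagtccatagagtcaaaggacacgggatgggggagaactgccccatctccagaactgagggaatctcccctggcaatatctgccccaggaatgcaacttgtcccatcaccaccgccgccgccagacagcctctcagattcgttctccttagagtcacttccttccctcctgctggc

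Over the 250 bases searched before each start, the EGR motif was found in 2 of the 11 windows, those of Prx (107 bases before the start) and of the second start site of Mag (35 bases before it), and in 28.1% of 32851 mouse promoter windows of the same length. ACAAAG was found in 3 windows, which are 2 overlapping ones of Mag and that of Cnp, against 16.5% of all windows. ACAATG (10.7% of all windows) and the AP-1 motif (6.75%) were not in these stretches. The CCAAT box (CCAAT, 33.8% of all windows) was in 5 windows of Pmp22, Mag, and Prx, the GC box (GGGCGG, 32.7%) in 4 windows of Pmp22, Cnp, and Pllp, and TATAAA (12.4%) in none. The letters of the EGR motif and the GC box can overlap, but no window of the members held both. These matches are a description of the letters only.

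Myelin genes outside the set moved in more than 1 direction with injury. Of 17 others, 14 were called lower and 1 higher in controls, with the largest fold changes for Ncmap (log2 -6.76, SE 0.32) and Fa2h, which makes 2-hydroxy fatty acids for myelin lipids (-6.68, SE 0.22). Aspa, which splits N-acetylaspartate, was the 1 called higher (0.57, SE 0.10) and is named for that reason. In RaptorKOs 12 were called lower, among them Fa2h (-6.29, SE 0.29) and Ncmap (-5.47, SE 0.38), and Gjb1, the connexin of non-compact myelin, was the 1 called higher (0.67, SE 0.10, named for that reason). All adjusted p of the genes named here were at most 2.48e-04 (edgeR's quasi-likelihood test).

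Regulators of myelin genes were followed as promyelinating factors and as factors of the immature or repair state. Among 10 promyelinating factors, 3 were called lower (Egr2, Nab1, and Sox10) and 2 higher (Pou3f1 and Zeb2) in injured controls. In injured RaptorKOs the same 2 were called higher, and 5 lower (Egr2, Nab1, Nab2, Sox10, and Tead1). The shares over all tested genes were 32.9% lower and 32.4% higher in controls, and 28.5% and 30.5% in RaptorKOs. The 2 counts of promyelinating factors in controls thus did not exceed the shares over all genes. Egr2 was 383.7, 432.8, and 410.2 CPM in contralateral and 36.72, 40.63, and 37.1 CPM in injured controls (-3.45, SE 0.11), and its log2 fold change was -2.82 (SE 0.13) in RaptorKOs. Pou3f1, the factor of the promyelinating stage, rose in controls (2.93, SE 0.18). All 7 tested factors of the immature or repair state were called higher in both genotypes, with Runx2 at 5.49 (SE 0.14) in controls and 4.83 (SE 0.23) in RaptorKOs and Sox2 at 3.44 (SE 0.30) in RaptorKOs (adjusted p at most 3.39e-06 for the fold changes printed, and at most 0.00706 for the other promyelinating factors called, edgeR's quasi-likelihood test).

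Markers of the cells of the nerve changed with injury too. The 6 SC markers summed to 3696 to 3850 CPM in contralateral and 2749 to 2835 CPM in injured controls. In controls 4 of them were called lower, beside 32.9% of all tested genes. Those of RaptorKOs summed to 1715 to 2423 CPM and 1627 to 2021 CPM. There 3 were called lower and 1 higher, beside 28.5% and 30.5% of all tested genes. The 8 macrophage and monocyte markers were all called higher in both genotypes, from 138.4 to 158.2 CPM summed in contralateral to 2467 to 3051 CPM in injured controls, and from 220 to 291.2 to 1557 to 3274 CPM in RaptorKOs. By comparison, the 8 myelin genes summed to 57270 to 62730 CPM in contralateral and 1649 to 2044 CPM in injured controls, and to 48590 to 59130 and 1445 to 1867 CPM in RaptorKOs. The part of these cells in the fall of the myelin genes was not tested.

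**Figure D4:**
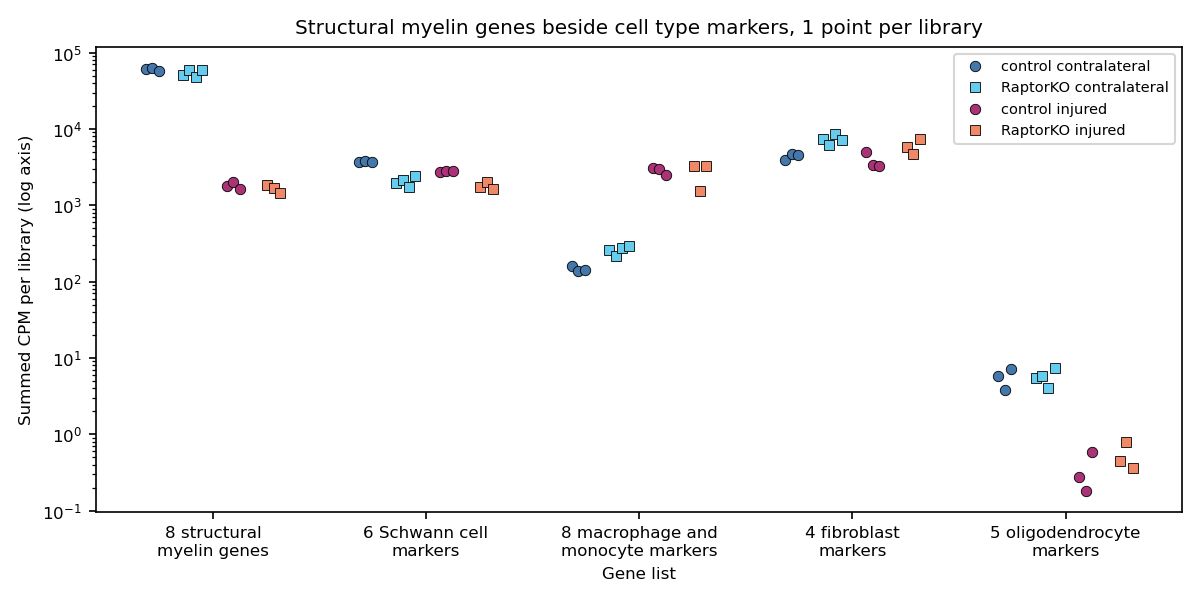
Summed CPM (log axis) of the 8 structural myelin genes and of markers of SCs, macrophages and monocytes, fibroblasts, and oligodendrocytes, with 1 point per library in 4 groups. The myelin genes are lower in injured libraries (1445 to 2044 CPM) than in contralateral ones (48590 to 62730 CPM), macrophage markers are higher, and SC markers are lower in RaptorKOs on both sides.

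A further question was whether loss of Raptor alone changed the structural genes in nerves without injury. No member was called in contralateral nerves by edgeR's quasi-likelihood test, although 3 had an unadjusted p below 0.05. Such values were common, as Cadm4, with an unadjusted p of 0.0458 in that test, ranked 2863 among the 11878 genes tested. The fold changes of all 8 were below 0, between -0.39 and -0.01 on the log2 scale, with a median of -0.15 against 0.012 over the 11878 genes tested. With TMM scaling replaced by library totals, those of Mbp, Prx, and Cnp lay just above 0. Of all tested genes 5.68% were called lower and 4.49% higher.

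Mal, Pllp, and Drp2 had the largest differences. Mal was 3307 to 3543 CPM in controls against 2207 to 3144 CPM in RaptorKOs, without overlap (-0.35, 95% interval -0.61 to -0.09, adjusted p = 0.0853, quasi-likelihood test). Pllp was 485.3 to 563.8 CPM in controls against 331.8 to 456.3 CPM in RaptorKOs, also without overlap (-0.39, interval -0.68 to -0.10, adjusted p = 0.0856, quasi-likelihood test). Groups without overlap were found for these 2 of the 8 genes and for 23.6% of all tested genes. Drp2 was 5068 to 5251 CPM in controls. It was 3304, 3444, and 3836 CPM in 3 of the RaptorKOs, but 5218 CPM in RaptorKO contralateral 4 (-0.37, interval -0.70 to -0.05, adjusted p = 0.144, quasi-likelihood test). Without RaptorKO contralateral 4, Drp2 was called lower (-0.54, adjusted p = 0.00377) and so was Pllp (-0.47, adjusted p = 0.0425), and without RaptorKO contralateral 2, Mal was (-0.46, adjusted p = 0.0138). Over all 14 alternatives the adjusted p was 0.0138 to 0.266 for Mal, 0.00888 to 0.247 for Pllp, and 0.000445 to 0.318 for Drp2. These include a replicate block, which joins equal numbers across genotypes although these mark no shared mouse. DESeq2 called all 3.

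The other 5 genes differed less between contralateral genotypes. Pmp22, whose gene dosage decides between forms of inherited neuropathy, had a log2 fold change of -0.22 (interval -0.46 to 0.02, adjusted p = 0.250). Over 14 alternatives it was -0.277 to -0.144, with an adjusted p of 0.0190 to 0.571 (edgeR's quasi-likelihood test, its exact test, and DESeq2). Pmp22 met both thresholds of a call in none of them. Mbp (-0.01, interval -0.22 to 0.21), Prx (-0.01, interval -0.21 to 0.19), and Cnp (-0.01, interval -0.27 to 0.24) were centred on 0, and Mag was at -0.07 (interval -0.31 to 0.16). The lowest bound among these 5 intervals was the -0.46 of Pmp22. The spread between RaptorKO libraries was wider than between controls for all 8 genes, with an SD of 8.25% to 22.1% of the mean against 2.02% to 7.57%.

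Some myelin genes outside the set were called by genotype in the same nerves. Of 17, 3 were called lower, among them Aspa and Ncmap, and 1 higher (Pmp2). Aspa was lower (-1.08, SE 0.12, adjusted p = 2.71e-04), and Pmp2, a fatty acid carrier of myelin, was higher (0.62, SE 0.12, adjusted p = 0.0110, edgeR's quasi-likelihood test). Among regulators, Pou3f2 was called lower (-0.84, SE 0.22, adjusted p = 0.0399) and Nab2, a partner of EGR2, higher (0.47, SE 0.10, adjusted p = 0.0156, quasi-likelihood test). Of 6 SC markers 5 were called lower, of 6 tested macrophage and monocyte markers 4 were called higher, and of 4 fibroblast markers 3 were called higher (their sum was 3945 to 4706 CPM without and 6192 to 8631 CPM with the knockout). Of the 4 mast cell markers 2 were called higher, and summed to 5.733 to 50.64 CPM in controls against 75.29 to 127.4 CPM in RaptorKOs. The 4 skeletal muscle markers stayed at 25.73 CPM summed or lower in every library. Their part in the small differences of the structural genes was not tested.

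In injured nerves, where RaptorKOs and controls were also compared, 2 of the 8 genes were called and they moved in opposite directions. Cnp was lower in RaptorKOs, at 218.1, 211.9, and 175.5 CPM against 278.8, 320.5, and 275 CPM in controls (log2 fold change -0.51, SE 0.12, adjusted p = 0.0247, edgeR's quasi-likelihood test). Drp2 was higher in RaptorKOs, at 85.83, 77.18, and 73.53 CPM against 58.83, 65.67, and 48.26 CPM (0.47, SE 0.13, adjusted p = 0.0451, quasi-likelihood test). The libraries of the 2 genotypes did not overlap for either gene, nor did those of 26.3% of all tested genes. Among the 12040 genes tested, 4.44% were called lower and 4.09% higher, and the members' median of -0.10 lay beside 0.001 for all genes.

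Both calls rested on few libraries. That of Cnp was lost without control injured 2 (adjusted p = 0.116), RaptorKO injured 1 (0.0528), or RaptorKO injured 3 (0.0598), and held in 10 of 13 alternatives (adjusted p 0.00151 to 0.116, edgeR's quasi-likelihood test, its exact test, and DESeq2). That of Drp2 was lost without any one of control injured 1, 2, or 3 or RaptorKO injured 1 or 2 (adjusted p 0.0544 to 0.193) and with all 13 libraries in 1 fit (0.0850). The alternatives of both genes include a replicate block, which joins equal numbers across genotypes although these mark no shared mouse. Dnajc7, which overlaps Cnp, was 129 to 176 CPM in injured controls and 174 to 213 CPM in injured RaptorKOs. Its part in the call of Cnp was not tested.

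Mag had the largest fold change among the members but was not called. It was 15.81, 14.3, and 13.99 CPM in injured RaptorKOs, and in injured controls 32.65 and 26.63 CPM but also 14.43 CPM (-0.73, interval -1.29 to -0.17, adjusted p = 0.113, edgeR's quasi-likelihood test). It was called lower in 4 of 13 alternatives, namely without control injured 1 (-1.003, adjusted p = 0.0112), in a fit of all 13 libraries (0.0416), by DESeq2 (0.0484), and with no count filter (0.00787), whereas without control injured 2 it was at -0.47 (adjusted p = 0.399). Pmp22 (-0.24, interval -0.54 to 0.07) and Mal (-0.21, interval -0.52 to 0.10) had fold changes below 0. Mbp (0.04, interval -0.29 to 0.36), Prx (0.09, interval -0.39 to 0.57), and Pllp (0.01, interval -0.33 to 0.35) lay around 0.

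Around them, 4 of the 17 other myelin genes were called lower, among them Aspa, Cadm4, and Ugt8a, and 2 higher (Bcas1 and Gjb1). Bcas1, known from early myelinating oligodendrocytes, was 178.2 to 205.9 CPM in RaptorKOs and 51.7 to 59.07 CPM in controls (1.83, SE 0.11, adjusted p = 1.03e-05), and Gjb1 was higher too (1.05, SE 0.11, adjusted p = 4.41e-04). Aspa was lower (-1.48, SE 0.15, adjusted p = 4.11e-04, edgeR's quasi-likelihood test). Of the regulators only the immediate early factor Egr1 was called (0.78, SE 0.20, adjusted p = 0.0304, quasi-likelihood test), and Egr2 was 36.72 to 40.63 CPM in controls against 43.27 to 46.45 CPM in RaptorKOs (0.24, adjusted p = 0.259). SC markers were called lower in 4 of 6, no macrophage and monocyte marker was called, and all 4 endothelial markers were called higher (178.4 to 274 CPM summed in controls and 319.6 to 492.9 CPM in RaptorKOs). The 4 mast cell markers were also called higher (1.743 to 43.86 against 91.69 to 174.9 CPM summed), as were 2 of the 4 fibroblast markers. How far these cells enter the values of Cnp and Drp2 was not tested.

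Whether the genotype effect itself differed between injured and contralateral nerves was tested as an interaction over all 13 libraries. Drp2 was the 1 member called, with a difference of 0.85 on the log2 scale (SE 0.21, interval 0.40 to 1.29, adjusted p = 0.0463, edgeR's quasi-likelihood test), from -0.37 in contralateral to 0.47 in injured nerves. Of the 12851 genes tested, 1.07% were called higher and 1.41% lower. The call was lost in 14 of 19 alternatives. These were DESeq2 size factors in edgeR (adjusted p = 0.0613) and leaving out both control libraries numbered 3 (0.75, adjusted p = 0.171). The rest were leaving out any one library except RaptorKO contralateral 4 (adjusted p 0.0578 to 0.123). Over all 19 alternatives the difference stayed between 0.73 and 1.02. It was highest, and called, with a replicate block that takes equal numbers within a genotype as 1 mouse (adjusted p = 0.00390, edgeR's quasi-likelihood test). No label states such pairs.

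The other 7 members were not called for the interaction. Cnp was at -0.50 (interval -0.86 to -0.13, adjusted p = 0.167), Mag at -0.65 (interval -1.24 to -0.05, adjusted p = 0.296), and Pllp at 0.41 (interval -0.04 to 0.85, adjusted p = 0.415, edgeR's quasi-likelihood test). Mag passed the threshold without control injured 1 (-0.93, adjusted p = 0.0179). Mbp (0.05, interval -0.32 to 0.41), Pmp22 (-0.01, interval -0.38 to 0.35), Prx (0.11, interval -0.45 to 0.66), and Mal (0.15, interval -0.26 to 0.55) were near 0. The low call of Cnp in injured nerves is therefore not shown to differ from its contralateral value of -0.01.

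Across the 13 libraries the 8 genes followed each other, with Pearson's r of log2 CPM from 0.97 (Cnp and Drp2) to 0.998 (Mbp and Pmp22) over 28 pairs. All pairs share the step between contralateral and injured libraries. Within the 7 contralateral libraries r ranged from 0.336 (Mbp and Mal) to 0.936 (Pmp22 and Pllp). Within the 6 injured libraries it ranged from -0.609, again for Cnp and Drp2, to 0.857 for Mbp and Pllp, with 22 of 28 pairs above 0. These values describe libraries that also differ in genotype.

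The 5 genes whose levels were most like the mean profile of the members, among 12843 others, included Cldn19, a claudin of myelin tight junctions (r = 0.9994), Limch1 (0.999), the potassium channel gene Kcnk1 (0.9987), and the chloride channel gene Clcn2 (0.9984). Kcnk1 went in controls from 211.7 ± 28.68 to 4.829 ± 0.2135 CPM (SD) and was 164.7 ± 31.18 and 4.429 ± 0.8387 CPM with Raptor lost. The same 5 genes led with a prior count of 10 in the log2 CPM. Within the 6 injured libraries the 4 named here ranked from 22 (Cldn19) to 978 (Limch1), and within the 7 contralateral ones from 28 (Kcnk1) to 458 (Limch1).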

How the data were processed

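RNA was sequenced from 13 sciatic nerves of mice, with the epineurium removed, and libraries were grouped by their labels. The injured libraries (3 control and 3 RaptorKO) came from the part distal to the injury. The contralateral libraries were 3 control and 4 RaptorKO. Per the labels and methods, libraries were made with a stranded mRNA kit and read from 1 end. The methods also describe the total RNA as depleted of ribosomal RNA, so how mRNA was selected is not clear. The authors trimmed the reads with Trimmomatic and quantified genes on GRCm38 with RSEM 1.2.22, and deposited expected counts that were not normalized. Of the nonzero expected counts, 24.93% to 27.95% per library were not whole, since RSEM divides reads with several matches among genes, and they were rounded here. The table holds 40787 genes, of which 40550 matched GENCODE M21 by ID and 17175 had no count.

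The tools were edgeR 4.0.16, DESeq2 1.42.0, and limma 3.58.1 under R 4.3.3. Figures were drawn in matplotlib 3.10.9 under Python 3.11.15. Genes with at least 50 counts in at least 2 libraries of a comparison were tested with edgeR's quasi-likelihood test after TMM scaling, adjusted by Benjamini-Hochberg over every gene tested. Calls needed more than a 1.2-fold change and an adjusted p under 0.05. The 5 comparisons were injury within each genotype, genotype within each kind of nerve, and their interaction. Comparisons of injury and of genotype share libraries and are not independent of each other. CPM use TMM factors of all 13 libraries, and log2 CPM a prior count of 2. Lengths for CPM per kilobase were all exon bases of a gene in GENCODE M21, joined over its transcripts. Intervals are 95% and cover the spread between libraries.

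The members and gene lists were chosen with earlier results of these data known. Named are all 8 members, in each comparison the 3 other myelin genes and the 3 regulators with the largest fold change among those called, the 5 genes most like the members, and Rptor. Genes named beyond this rule, to spell out a count of 5 or fewer or as Egr2 in the comparison of injured genotypes, were chosen after their values were seen. Results of some genes under this rule are left out here. Levels of other genes and of marker lists are given where they stand beside a result. Alternatives were 2 other scalings, no count filter, DESeq2, the exact test of edgeR that the study used, 1 fit of all libraries, a replicate block, and leaving out each library. Leaving out both control libraries numbered 3 was added after seeing the data. The tests were tried on simulated counts. Promoters were read from RefSeq (250 bases before each start).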

Additional observations from a re-analysis of the deposited data

Results flagged for a closer look

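The interaction of genotype and injury was called by edgeR's quasi-likelihood test for Drp2 (0.85 on the log2 scale, adjusted p = 0.0463), a call that was lost in 14 of 19 alternatives (adjusted p up to 0.171). It was also called for 3 of the 17 other myelin genes, 2 higher and 1 lower, beside 1.07% of all tested genes called higher and 1.41% lower. Bcas1 differed by 1.77 (adjusted p = 1.02e-05) and Gjb1 by 1.30 (adjusted p = 1.75e-04), both higher in injured RaptorKOs. Ugt8a, which makes the galactolipids of myelin, differed by -0.98 (adjusted p = 0.00718), and was 59.92 to 69.98 CPM in injured controls and 29.47 to 39.8 CPM in injured RaptorKOs. In contralateral nerves Ugt8a was 806.6 to 984 and 840.7 to 1001 CPM, and Bcas1 was 689.1 to 731 CPM in controls against 655.9 to 799.6 CPM in RaptorKOs. The cause of these differences was not tested.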

How the results depend on the processing

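All 8 members stayed called lower after injury in both genotypes under every alternative run. With library totals alone the median of all tested genes moved from -0.002 to 0.199 in controls and from 0.028 to 0.186 in RaptorKOs, and the members' medians were -4.41 and -4.61. In contralateral nerves, no member was called by genotype, but 2 were called lower without a count filter, 3 with DESeq2, 3 with the replicate block, and 0 to 2 without 1 library (2 without RaptorKO contralateral 4, 1 without RaptorKO contralateral 2). In injured nerves, 1 member was called lower, but 2, Cnp and Mag, when no filter was used, when DESeq2 was used, or when all libraries entered 1 fit, and 0 to 2 without 1 library. Likewise 1 was called higher, but 0 with all libraries in 1 fit and 0 to 1 without 1 library. For the interaction 1 was called higher, but 0 with DESeq2 size factors in edgeR, 0 without both control libraries numbered 3, and 0 to 1 without 1 library, and 0 were called lower, or 0 to 1 without 1 library. The cause of these changes was not tested.

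Fold changes that crossed 0 were all small and uncalled. With library totals alone these were Mbp (0.031), Prx (0.028), and Cnp (0.022) in contralateral nerves. Pllp in injured nerves was at -0.002 with the replicate block and at -0.004 with all libraries in 1 fit. The interaction of Pmp22 was 0.017 with the replicate block, and that of Mbp was -0.047 without both control libraries numbered 3. Without 1 library, the contralateral values ranged from -0.057 to 0.036 for Mbp, -0.064 to 0.034 for Prx, and -0.084 to 0.065 for Cnp. Those in injured nerves ranged from -0.101 to 0.141 for Mbp, -0.158 to 0.357 for Prx, and -0.105 to 0.162 for Pllp. The interactions ranged from -0.157 to 0.092 for Pmp22, -0.09 to 0.137 for Mbp, and -0.154 to 0.366 for Prx.

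Within a genotype, equal replicate numbers may mark both nerves of 1 mouse, since the crush was on 1 side, but no label states it. Xist was high in both control libraries numbered 3 and in no other. Deviations from group means of same-numbered injured and contralateral libraries correlated at 0.067, 0.129, and 0.305 in controls and -0.024, 0.211, and 0.168 in RaptorKOs, and not every library correlated best with its own number. The tests above use no pairing. With the replicate block all 8 members were called lower after injury in each genotype, and the interaction of Drp2 was 1.019 (adjusted p = 0.00390, edgeR's quasi-likelihood test). Across genotypes, where a number marks no shared mouse, it made the contralateral calls of Mal, Pllp, and Drp2, and it changed no other call of a member. The call of Drp2 in injured nerves and its interaction lay close to the threshold. Mag, at 13.99 to 32.65 CPM in injured nerves, is the member with the fewest counts behind it.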
